A study of Mus musculus with 25 samples.

Results

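Cohesin and CTCF were compared in untreated NIH-3T3 cells, a mouse embryonic fibroblast line, from 3 lists of chromatin immunoprecipitation peaks: 2 with an antibody to CTCF (Millipore 07-729) and 1 with an antibody to the cohesin subunit SMC1 (Bethyl A300-055A). The 184638 peaks of these lists, of 1227153 peaks in all 25 lists of the series, were merged into 107933 regions wherever they touched or overlapped. A region was called SMC1 only when it held a peak of SMC1 and none of CTCF, both CTCF only when it held peaks of both CTCF lists and none of SMC1, and all 3 when every list had a peak in it. There were 64211 SMC1 only regions, 735 both CTCF only regions and 32507 all 3 regions, while 10480 regions held a peak of 1 CTCF list alone, with or without SMC1, and stood in no class.

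The series asks how TCF-1, a transcription factor of early T cells, takes part in the folding of the genome. The 3 lists come from cells labelled as normal and untreated, with no transgene named, crosslinked with formaldehyde. Where other lists of the series are used below, they are from NIH-3T3 cells induced to express TCF-1, from Scid.adh cells with a knockout of TCF-1, and from Scid.adh cells with an empty vector. Scid.adh is a thymic lymphoma line that stands in for T cell precursors of the DN3 stage, and the labels do not say how TCF-1 was induced or whether the knockout is 1 clone. They also do not say whether the lists of 1 antibody come from separate cultures. The untreated SMC1 list has no replicate, so no test over samples could be made for any contrast with SMC1. Regions of 1 list are not replicates of a condition, and all shares are therefore given as descriptions, with 95% Wilson intervals where printed that cover counting error only. The lists hold positions and no read totals or peak scores, so depth is unknown, and a missing peak is a peak that was not called.

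Cohesin is a ring of SMC1, SMC3, RAD21 and a STAG subunit that is loaded on chromatin by NIPBL and that extrudes DNA into loops. CTCF is a zinc finger protein that binds a long motif and stops cohesin when it is met from one side, so that loop anchors usually carry both. Cohesin is also found without CTCF, at active promoters and enhancers. Fibroblasts are cells of connective tissue that secrete collagens and other matrix proteins and pull on them with actin stress fibres.

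The sequences below are promoters, printed as examples of the 3 classes at gene starts. Windows with the CTCF core described below were preferred, so the examples do not show how common it is. Each is a window of 300 bases, from 250 before to 50 after the start of a RefSeq transcript of GRCm38.p6, written 5′ to 3′ on the strand of the gene. Capitals mark matches to a core of the CTCF motif, which reads CCA, 2 free bases, AG, 2 free bases and GGC and was searched on both strands. This core stood in 2.44% of all 32583 windows. A match is a description of the letters and not a site shown to be bound.
Col6a3 (SMC1 only, chr1:90843922-90844221, minus strand): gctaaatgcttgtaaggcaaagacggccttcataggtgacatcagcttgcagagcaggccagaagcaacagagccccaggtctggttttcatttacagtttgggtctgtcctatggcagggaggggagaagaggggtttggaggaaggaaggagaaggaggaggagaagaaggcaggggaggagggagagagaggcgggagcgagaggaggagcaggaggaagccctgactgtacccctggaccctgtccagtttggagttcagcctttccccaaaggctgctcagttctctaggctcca
Bgn (SMC1 only, chrX:73483351-73483650, plus strand): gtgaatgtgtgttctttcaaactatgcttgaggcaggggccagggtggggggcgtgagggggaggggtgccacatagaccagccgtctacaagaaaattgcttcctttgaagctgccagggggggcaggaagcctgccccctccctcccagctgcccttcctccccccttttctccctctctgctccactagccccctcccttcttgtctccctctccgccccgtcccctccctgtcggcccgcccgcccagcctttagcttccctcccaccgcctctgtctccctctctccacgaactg
Nsfl1c (both CTCF only, chr2:151493932-151494231, plus strand): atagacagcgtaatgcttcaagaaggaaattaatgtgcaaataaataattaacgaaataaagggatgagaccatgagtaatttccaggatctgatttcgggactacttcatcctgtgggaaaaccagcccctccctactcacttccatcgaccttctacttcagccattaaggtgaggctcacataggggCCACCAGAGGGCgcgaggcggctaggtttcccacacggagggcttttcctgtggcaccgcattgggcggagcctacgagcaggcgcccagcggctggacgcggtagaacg
Foxc1 (all 3, chr13:31806396-31806695, plus strand): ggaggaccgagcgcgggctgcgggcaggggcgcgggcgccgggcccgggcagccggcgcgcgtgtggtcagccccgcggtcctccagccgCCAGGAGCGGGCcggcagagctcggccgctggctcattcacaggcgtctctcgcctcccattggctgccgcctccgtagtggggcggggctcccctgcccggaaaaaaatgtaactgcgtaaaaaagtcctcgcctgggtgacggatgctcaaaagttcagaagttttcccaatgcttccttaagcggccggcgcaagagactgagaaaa
Col1a2 (all 3, chr6:4505368-4505667, plus strand): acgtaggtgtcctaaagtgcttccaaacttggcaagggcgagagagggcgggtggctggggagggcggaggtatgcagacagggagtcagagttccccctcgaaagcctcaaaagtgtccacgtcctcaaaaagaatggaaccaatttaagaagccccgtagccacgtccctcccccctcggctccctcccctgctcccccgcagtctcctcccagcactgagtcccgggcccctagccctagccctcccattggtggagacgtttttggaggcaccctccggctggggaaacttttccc
Rplp0 (all 3, chr5:115559217-115559516, plus strand): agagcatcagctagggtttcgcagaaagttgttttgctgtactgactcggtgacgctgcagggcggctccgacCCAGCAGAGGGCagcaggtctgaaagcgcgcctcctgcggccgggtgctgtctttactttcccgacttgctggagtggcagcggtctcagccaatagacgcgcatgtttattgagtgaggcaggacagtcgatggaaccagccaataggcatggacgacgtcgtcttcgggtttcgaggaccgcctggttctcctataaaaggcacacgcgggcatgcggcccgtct

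Col6a3, a chain of collagen VI, and Bgn, the matrix proteoglycan biglycan, have starts inside SMC1 peaks of 2523 and 3220 bp and no match to the core. Their nearest CTCF peaks lay 3236 and 3812 bp from the window. Rplp0, a ribosomal stalk protein gene, has CCAGCAGAGGGC at bases 74 to 85 of its window, inside the peaks of both CTCF lists and of SMC1. Nsfl1c, which encodes the p97 cofactor p47, has CCACCAGAGGGC at bases 191 to 202, inside the peaks of both CTCF lists, and its nearest SMC1 peak lay 10049 bp away. Foxc1, a forkhead factor of mesenchyme, and Col1a2, a chain of collagen I, lie in all 3 regions whose CTCF peaks hold no match at the start. At Foxc1 the match, which starts at base 91, lay in the SMC1 peak alone, and the CTCF peaks of the region began 1390 and 1386 bp from the window. At Col1a2 the window has no match, and a CTCF peak covers it in list 2 while that of list 1 begins 130 bp away. Rplp0 and Nsfl1c were chosen for their match to the core, after their values were seen. The other windows came from the rule for named genes, which put windows with the core first.

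Nearly every CTCF region carried cohesin, and most cohesin regions carried no CTCF. Of the 33242 regions with peaks of both CTCF lists, 97.8% also held SMC1. Of the 10480 regions with a peak of 1 CTCF list, 78.4% did. Seen from cohesin, 61.2% of the 104939 regions with SMC1 had no CTCF peak and 31.0% had both. Peak by peak, 96.2% of CTCF list 1 and 94.5% of CTCF list 2 overlapped SMC1, while 38.9% of the SMC1 peaks overlapped a peak of either CTCF list.

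**Figure D1:**
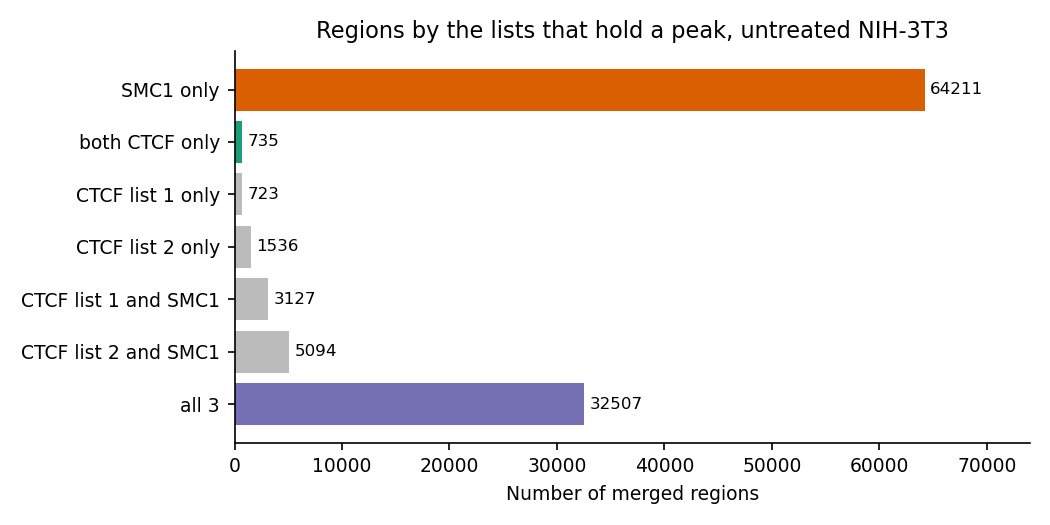
Number of merged regions (horizontal axis) by the lists that hold a peak in them (vertical axis). SMC1 only is the longest bar with 64211 regions, both CTCF only has 735, and all 3 has 32507. Grey bars are the regions with a peak of 1 CTCF list alone.

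The 2 CTCF lists were similar in length and width and the SMC1 list was not. CTCF list 1 held 38369 peaks with a median width of 376 bp, list 2 held 41236 with a median of 384 bp, and SMC1 held 105033 with a median of 547 bp. They covered 17.8, 20.1 and 97.7 Mb. Of list 1, 89.2% overlapped list 2, and of list 2, 82.9% overlapped list 1. The widest CTCF peaks were 5246 and 4327 bp and the widest SMC1 peak was 42117 bp, and 0.553% and 0.708% of CTCF peaks were at least 2 kb wide, against 10.2% of SMC1 peaks. The counts of the classes changed when the lists were cut to equal length. CTCF list 2 and SMC1 were reduced to their 38369 widest peaks, the length of CTCF list 1. There were then 20670 SMC1 only, 17245 both CTCF only and 14953 all 3 regions. This cut removes the narrow peaks, so the parts of list length and of peak width cannot be told apart. With CTCF list 1 or list 2 left out, 2280 or 1469 regions had CTCF alone. The 735 regions without SMC1 are thus a count for these lists as called.

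Cohesin without CTCF lay in narrower peaks than cohesin with CTCF. SMC1 peaks had a median width of 472 bp in SMC1 only regions and 728 bp in all 3 regions, and 6.51% against 16.9% were at least 2 kb wide. CTCF peaks followed the same order. In both CTCF only regions their medians were 270 bp in list 1 and 279 bp in list 2, and in all 3 regions 390 and 405 bp, so the 2 lists differed by far less than the classes. SMC1 was missing most often at the narrowest CTCF peaks. By any base it overlapped 86.0% and 81.5% of the narrowest 10% of CTCF peaks in lists 1 and 2 and 98.5% and 98.1% of the widest 10%. By the central base of the CTCF peak these were 85.5% and 80.8%, and 90.7% and 88.4%. The highest shares by central base were 99.1% at 376 to 410 bp in list 1 and 98.3% at 384 to 425 bp in list 2, so the share did not climb evenly with width.

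**Figure D2:**
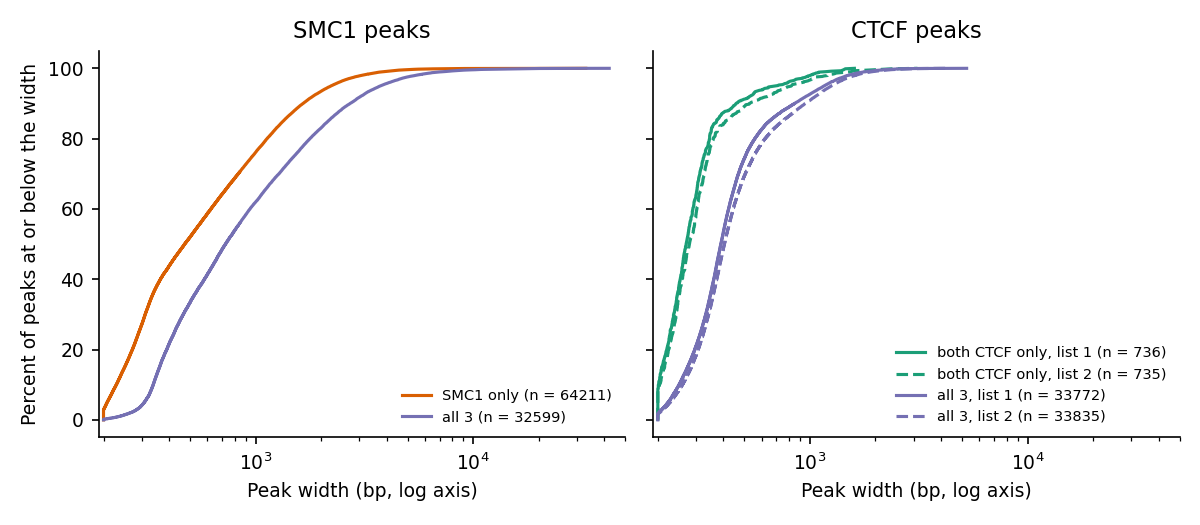
Cumulative percent of peaks (vertical axes) by peak width in bp (horizontal log axes), with SMC1 peaks on the left and CTCF peaks on the right. The SMC1 only curve lies left of the all 3 curve, with medians of 472 and 728 bp, and both CTCF only curves lie left of the all 3 curves, with medians of 270 and 279 bp against 390 and 405 bp.

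The share of SMC1 peaks with CTCF did not climb evenly with width. With the peaks in 10 equal groups by width, it was 11.4% in the narrowest (200 to 248 bp), 48.4% among peaks of 348 to 424 bp, 39.0% among those of 960 to 1327 bp and 61.3% in the widest (2022 bp and more). Since overlap by any base depends on width, the central base was also used, and gave 11.2% in the narrowest, 48.2% at 348 to 424 bp and 18.98% in the widest. SMC1 peaks of roughly the width of a CTCF peak were therefore those most often centred in one.

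In all 3 regions the peaks are joined by touch or overlap, so the rule of the class itself keeps their centres near. In the 30942 all 3 regions with 1 peak of each list, the centres of CTCF and SMC1 peaks were a median of 60.5 bp apart for list 1 and 63 bp for list 2, against 28 bp between the CTCF lists. They were within 50 bp in 45.6% and 44.6% of these regions, against 69.5% between the CTCF lists. Within SMC1 peaks of at least 2 kb the medians were 640 and 637 bp, so CTCF lay off the middle of the broad ones. Several CTCF peaks of 1 list shared a region in 4.72% of all 3 regions, up to 7 in the region at Lima1, a gene for an actin-binding protein. The line between classes was sharp. Only 5 SMC1 only regions ended within 50 bp of a CTCF peak and 1.07% within 1 kb, and 21 SMC1 peaks shared 50 bp or fewer with CTCF.

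The widest regions of the 2 classes with cohesin were broad domains, each over 1 gene except that at Thbs1, which also met Fsip1. Among SMC1 only regions these were 32881 bp in Pdlim5, which encodes an actin-associated PDZ and LIM domain protein, 23148 bp at Zfhx4, a zinc finger homeobox gene, and 16460 bp at Prrx1, the homeobox gene of limb mesenchyme. Next were 14173 bp in Dnm3, a dynamin gene, and 13107 bp in Cald1, whose product caldesmon binds actin. In all 3 regions the widest was 42117 bp and ran over the whole of Col1a2 (chromosome 6, 4501571 to 4543687). The others were 36562 bp at Myh9, the heavy chain of nonmuscle myosin, 32830 bp at Lima1, 28646 bp at Fosl2, an AP-1 factor, and 23654 bp at Thbs1, the matrix protein thrombospondin. In the Col1a2 region each CTCF list had 1 peak, so the label all 3 describes 1 position in 42117 bp. Zfhx4, Prrx1 and all of the widest all 3 regions reached a gene end, and all 10 were also called with SMC1 in induced cells. The SMC1 only regions in Dnm3 and Cald1 also held a peak of both CTCF lists of induced cells, while those at Pdlim5, Zfhx4 and Prrx1 held none.

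Both CTCF only regions were far narrower than these domains, which follows from the lists and the rule of the class. They hold no SMC1 peak, and the widest CTCF peaks of the 2 lists, with or without SMC1, were 5246 and 4327 bp. The widest both CTCF only regions were 3118 bp near 9530057J20Rik and 2419 bp near Gm15319, both on chromosome 8 and over 70 kb from the gene, with distances of 72922 and 75057 bp. Then came 2391 bp at Cnbp, a zinc finger protein that binds nucleic acids, 2175 bp near Tdpoz3 and 2034 bp at Ift27, of ciliary transport. SMC1 was called in induced cells at 4 of these 5, all but the region near Tdpoz3. How the authors treated reads with several matches is not given in the sources used here, so positions near members of gene families such as Tdpoz3 are uncertain.

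Cohesin with CTCF was nearer to genes than cohesin without it, and both were nearer than the genome at large. A protein-coding gene end lay within 1 kb of 9.31% of SMC1 only regions (interval 9.09 to 9.54), 7.21% of both CTCF only regions (5.55 to 9.31) and 18.2% of all 3 regions (17.8 to 18.6). Wide regions reach more ends, so the position of the centre is the fairer measure. By centre the shares were 8.06%, 5.58% and 14.0%, where 3.01% of the bases of the genome lie that close. Each CTCF list showed the same split on its own. Peak centres lay at a gene end in 4.49% of list 1 peaks and 4.65% of list 2 peaks without SMC1, against 13.7% and 13.9% of those with it.

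Among gene ends, starts stood out more than 3′ ends. For the 17274 genes with a known strand, region centres were within 1 kb of a start in 5.24% of SMC1 only, 2.99% of both CTCF only and 8.76% of all 3 regions, against 1.26% of the genome. At 3′ ends the shares were 1.54%, 2.31% and 2.85%, against 1.27%. The SMC1 only regions stood well above the genome at starts and close to it at 3′ ends. In the first 500 bp downstream of a start there were 29.6 centres per 1000 SMC1 only regions, 6.80 per 1000 both CTCF only regions and 38.5 per 1000 all 3 regions. In the 500 bp upstream there were 15.3, 6.80 and 26.0. The both CTCF only values rest on 5 regions each and show no summit.

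**Figure D3:**
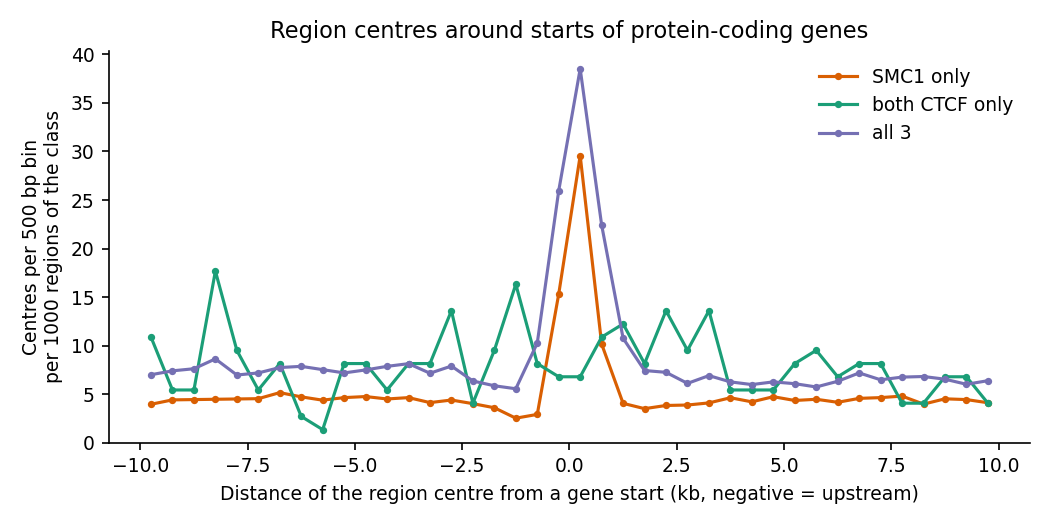
Region centres per 500 bp bin and per 1000 regions of the class (vertical axis) by distance from the start of a protein-coding gene (horizontal axis, kb, upstream negative). SMC1 only and all 3 both have their summit in the first 500 bp downstream, at 29.6 and 38.5, while the both CTCF only line has 1 to 13 regions in a bin and no summit there.

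Width and gene ends moved together. Centres were within 1 kb of a gene end, start or 3′ end, in 3.32% of SMC1 only and 4.13% of all 3 regions of 200 to 300 bp, and all 3 regions were the higher in each wider range too. The shares were 3.60% and 4.79% from 300 to 500 bp, 7.18% and 7.77% from 500 to 1000 bp, 17.6% and 20.3% from 1 to 2 kb, and 22.7% and 31.7% at 2 kb and more. At starts alone the order depended on width. Among regions of 200 to 300 bp, 1.06% of SMC1 only and 1.03% of all 3 centres were at a start. From 300 to 500 bp they were 1.56% and 1.25%, and from 500 to 1000 bp 4.67% and 3.21%, with SMC1 only the higher. From 1 to 2 kb they were 13.4% and 14.0%, and at 2 kb and more 17.0% and 23.8%, with all 3 the higher. Regions of 2 kb and more made up 6.51% of SMC1 only and 17.6% of all 3 regions.

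Away from ends, 47.2% of SMC1 only, 49.3% of both CTCF only and 44.6% of all 3 centres were inside gene bodies, against 37.9% of the genome. Gene deserts divided the classes more. Between genes and over 50 kb from any end lay 19.6% of SMC1 only, 12.1% of both CTCF only and 10.2% of all 3 centres, against 36.2% of the genome. The median distance to a gene end was 24598 bp for SMC1 only, 14618 bp for both CTCF only and 10552 bp for all 3 regions.

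Some SMC1 only regions came in groups along the chromosome, while 55.2% had no other of the class within 5 kb, against 72.4% of all 3 regions. The median gap to the nearest other region of the same class was 5858 bp for SMC1 only and 11951 bp for all 3 regions. From an SMC1 only region to the nearest all 3 region it was 18918 bp. Within 5 kb of another of its class stood 44.8% of SMC1 only and 27.6% of all 3 regions, though the SMC1 only class is also the larger. Runs in which each gap was at most 5 kb held 5 or more regions in 647 cases for SMC1 only and in 38 for all 3, and 34 SMC1 only runs held 10 or more. The runs of 5 or more took in 6.12% of SMC1 only and 0.606% of all 3 regions. The longest run of SMC1 only was 17 regions over 76.0 kb in Nfib, a nuclear factor I gene. Next were 16 over 56.1 kb in Runx2, the factor of bone-forming cells, and 14 over 49.99 kb beyond Myc, 114943 bp from that growth regulator. Apbb2, Cd44 (the hyaluronan receptor) and Dkk3 (a secreted relative of Wnt inhibitors) had runs of 13. The longest run of all 3 was 8 regions over 26.7 kb on chromosome 17 across Tubb5, Flot1, Mdc1 and Ier3, and both CTCF only runs had at most 3. These runs were chosen after their values were seen.

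Chromosomes differed in density more than in the balance of the classes. SMC1 only regions ran from 7.98 per Mb on the X chromosome to 35.2 on chromosome 11, and all 3 regions from 4.64 to 20.9 per Mb on the same chromosomes. SMC1 only regions outnumbered all 3 regions on every chromosome, by 1.54 times on chromosome 17 to 2.74 times on chromosome 13.

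Most fibroblast genes had cohesin both with CTCF and without it. A gene was counted when a region lay in its body or within 10 kb. Of the 80 genes in lists of matrix, mesenchymal and contractile genes, 76 had an SMC1 only region, 0 a both CTCF only region and 75 an all 3 region. Over all 21631 protein-coding genes these shares were 65.9%, 2.96% and 66.9%. SMC1 only regions outnumbered all 3 regions at 58 of the 80 genes, against 38.3% of all genes. At the gene ends themselves 41 of the 80 had an SMC1 only region and 56 an all 3 region, where the shares over all genes were 29.4% and 29.3%, and 0.291% for both CTCF only. With a background of 2.96%, the 0 of 80 genes is not a result about these genes.

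The number of regions separated these genes from all protein-coding genes more than their presence. The median gene of the 3 lists had 4 SMC1 only and 2 all 3 regions, and the median of all genes was 1 of each. SMC1 peaks covered a median of 30.1% of the window of a fibroblast list gene, against 5.26% over all genes. Long genes have more regions, so all genes were put in 5 equal groups by window length. The median SMC1 only counts of list genes from the shortest to the longest group were 1, 2, 3, 5 and 11.5, where those of all genes were 0, 1, 1, 2 and 4. For all 3 regions the list medians were 2, 1, 1, 3 and 2, where those of all genes were 0, 1, 1, 1 and 2. The list median was the higher in all 5 groups for cohesin without CTCF and in 2 of them for cohesin with it. Of the 782 regions in these windows, 0 were counted for more than 1 of the 80 genes.

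All 30 matrix genes had an SMC1 only region and 26 an all 3 region. Fbn1, the fibrillin of microfibrils, had 23 SMC1 only and 3 all 3 regions. Fn1, fibronectin, had 13 and 1, and Col5a1, a chain of collagen V, had 12 and 9. Col6a3 had 12 and 4, Col3a1, collagen III, 11 and 1, and Tnc, tenascin C, 11 and 2. Col5a2, the partner chain of Col5a1, had 10 and 2, and Timp3, an inhibitor of metalloproteinases, had 9 and 4. All of these had more cohesin regions without CTCF than with it, by the smallest margin at Col5a1. Dcn and Lum, the leucine-rich proteoglycans decorin and lumican, Timp1 and Serpinh1, the collagen chaperone, had 7, 5, 2 and 4 SMC1 only regions and no all 3 region.

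A count of regions does not measure how much of a gene cohesin covered. Col1a1, the other chain of collagen I, had 3 SMC1 only and 1 all 3 region, yet SMC1 peaks covered 71.4% of its window. At Col1a2 the counts were 1 and 3 and the cover 81.9%, and at Col6a1 they were 3 and 1 and the cover 88.6%. At Fbn1, first by count, SMC1 peaks covered 24.9 kb of a window of 226 kb. Thbs1 and Lox, the collagen cross-linking enzyme, had 1 SMC1 only and 1 all 3 region each and cover of 70.4% and 58.7%.

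Mesenchymal genes had SMC1 only regions in 21 of 24 cases and all 3 regions in 23. Runx2 had 51 SMC1 only and 5 all 3 regions, the highest SMC1 only count of the 80 genes. Igf1r, the receptor of insulin-like growth factor, had 32 and 4, Cd44 16 and 2, and Prrx1 10 and 1. The cadherin gene Cdh11 and the repressor genes Zeb1 and Zeb2, known from epithelial to mesenchymal transition, had 9 each, with 2, 1 and 1 all 3 regions. Cdh2, N-cadherin, and Tgfbr2, a receptor of TGF-β, had 8 and 1 each. Some genes of the list showed the other pattern. Snai2, Foxc1 and Vim had no SMC1 only region and 2, 2 and 1 all 3 regions. Fap, a protease of activated fibroblasts, had 2 SMC1 only regions and no all 3 region, and SMC1 covered 2.78% of its window, the least of the mesenchymal list.

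Contractile and YAP pathway genes all had an all 3 region, and 25 of 26 had an SMC1 only region. Tead1, the DNA-binding partner of YAP, had 34 SMC1 only and 4 all 3 regions. Wwtr1, which encodes TAZ, had 17 and 4, and Yap1 itself 6 and 1. The actin-regulated coactivators of SRF, Mrtfa and Mrtfb, had 19 and 10 and 17 and 3 regions. Of adhesion and actin genes, Actn1 (alpha-actinin) had 12 and 5, Vcl (vinculin) 12 and 2, Itgb1 (the beta 1 integrin) 9 and 3, and Cav1 (caveolin) 7 and 1. Ccn1 and Ccn2, secreted targets of YAP, had 1 SMC1 only region each and 1 and 2 all 3 regions, and Srf had 1 and 2. Tagln, transgelin, was the member with no SMC1 only region.

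**Figure D4:**
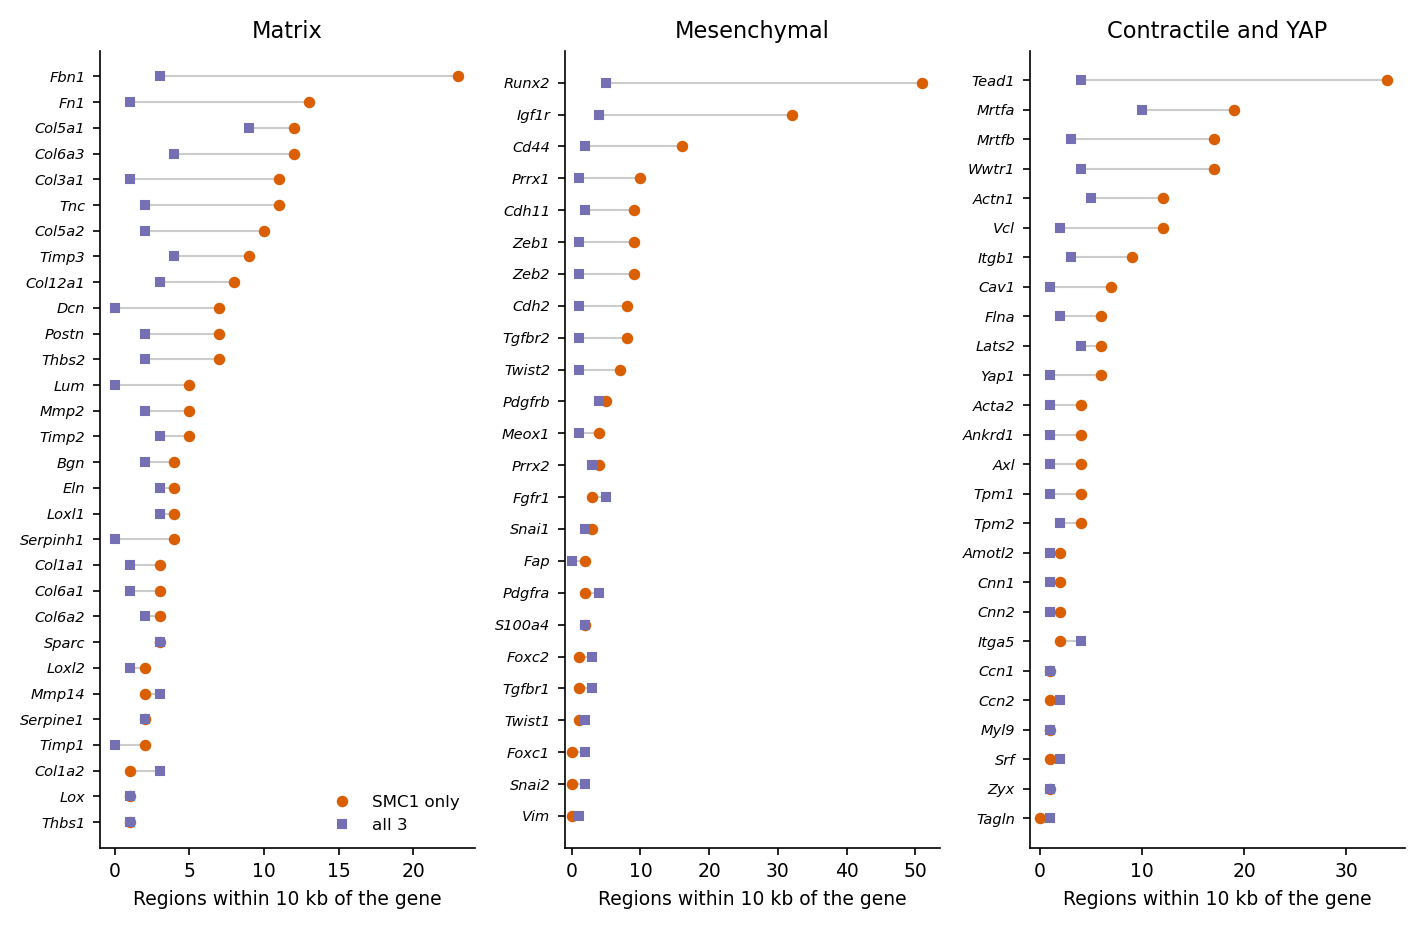
Regions within 10 kb of each of the 80 fibroblast list genes (horizontal axes), SMC1 only as circles and all 3 as squares, with genes in order of their SMC1 only count. SMC1 only exceeds all 3 at 58 genes, with the widest gaps at Runx2 (51 and 5), Tead1 (34 and 4) and Igf1r (32 and 4).

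Other gene lists gave a contrast for these counts. Of 14 genes of the serum response, such as Fos, Jun and Myc, 14 had an all 3 region at a gene end, 1 had an SMC1 only region there, and 10 had an SMC1 only region anywhere in the window. Of 14 housekeeping genes, 14 had an SMC1 only and 13 an all 3 region, with a median of 2 of each. The median SMC1 cover was 49.4% for serum response genes and 22.9% for housekeeping genes. The 13 genes of cohesin and CTCF had an SMC1 only region in 13 cases and an all 3 region in 10, with a median cover of 4.15%. Rad21, the kleisin subunit, had 1 SMC1 only and no all 3 region, and Ctcf had 1 and 4. T cell genes, which mark another lineage, had SMC1 only regions in 10 of 21 cases and all 3 regions in 14, and 7 had neither. Over all genes the shares were 65.9% and 66.9%, and 4433 of 21631 genes had neither. The all 3 share of T cell genes, 66.7%, was thus that of genes in general. Cd3e, Cd3d, Cd8a, Cd8b1, Il7r and Cd28 had no SMC1 peak in the window. Genes of other lineages (epithelium, muscle, nerve, vessel and blood) had SMC1 only regions in 11 and all 3 regions in 12 of 17 cases, near the shares over all genes. The median SMC1 cover was 3.74% for T cell genes and 3.39% for genes of other lineages, against 30.1% for the fibroblast lists. Cover was thus lower at the lists of other lineages than at the fibroblast lists, and that of serum response genes was above both. Median windows were 24.4 kb for serum response, 53.7 kb for fibroblast, 40.9 kb for T cell and 35.1 kb for other lineage genes. The part of window length in these covers was not tested. Per 100 kb of window, the median number of SMC1 only regions was 7.73 in the fibroblast lists, 6.67 in housekeeping and 5.96 in serum response genes. It was 2.49 in genes of cohesin and CTCF, 2.85 in genes of other lineages, 0 in T cell genes and 2.89 over all genes. By this density, housekeeping and serum response genes were closer to the fibroblast lists than to all genes.

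Over all genes, the highest SMC1 only counts belonged to long genes. Rad51b, of DNA repair, had 79 SMC1 only and 6 all 3 regions, and Bnc2, a zinc finger gene, had 72 and 3. Lpp, whose protein sits at focal adhesions, had 72 and 4, Dlgap2, a synaptic scaffold gene, 69 and 5, and Foxp1, a forkhead gene, 68 and 9. Babam2, of the BRISC and BRCA1-A complexes, had 56 and 2, Syn3, a synapsin gene, 55 and 12, Prkg1, the cGMP-dependent kinase, 53 and 9, and Runx2 51 and 5. Their windows were 339 to 1221 kb long. Timp3 lies within the body of Syn3 in the annotation, so both genes count its regions.

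The highest all 3 counts were 29 for Gm37013, Gm38666 and Gm38667, which are overlapping models on chromosome 18 with the same counts. Then came Gse1 with 22, Pde4d, a cAMP phosphodiesterase gene, with 19, Camta1, a transcription activator gene, with 18, and Nav2 with 17. Cacna1a, a calcium channel gene, Kalrn, an exchange factor gene, and Pakap had 16 each. SMC1 only regions were more at 6 of these 7 genes, with 23 at Gse1, 37 at Pde4d, 37 at Camta1, 30 at Nav2, 15 at Cacna1a, 37 at Kalrn and 46 at Pakap. Both CTCF only regions reached 3 at Btnl1, Dnah8 and Them7, and 2 at 4931429L15Rik, Atcay, Atp5pb, Bcl2l12, Btnl2, Cacna2d2 and Camta1. Btnl1 and Btnl2, butyrophilin-like genes that neighbour each other, share at least some of theirs, since their windows overlap.

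Promoters showed that a class assigned to a region need not hold for the gene start. All 3 regions covered 17.3% of promoter windows and SMC1 only regions 18.2%, while 60.1% met no region. Among windows of the fibroblast lists, 16 of 68 lay in SMC1 only regions, 44 in all 3 regions, 5 in other regions and 3 in none. The CTCF core stood in 2.16% of windows in SMC1 only regions (interval 1.82 to 2.56), in 2 of 9 in both CTCF only regions and in 5.75% in all 3 regions (5.17 to 6.39), against 1.57% of those in no region.

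Windows with CTCF peaks on them differed from windows with CTCF elsewhere in the region. Where SMC1 and both CTCF lists had a peak on the window itself, 8.97% of 2988 windows held the core (interval 7.997 to 10.05), as at Rplp0. Where SMC1 lay on the window and CTCF in another place of the same all 3 region, as at Foxc1, 1.97% of 1928 did (1.44 to 2.69). Where SMC1 lay on the window and the region did not hold both CTCF lists, though some held 1, 2.09% of 6546 did (1.77 to 2.47). Of the 268 windows in the first group with the core, 98.1% had it inside the peaks of both CTCF lists. That group was chosen for CTCF peaks on the window, so this share follows in part from the choice. The share of all window bases inside those peaks is not given. Base composition was close between the classes, with a median of 59.7% GC in SMC1 only, 60.0% in both CTCF only and 61.7% in all 3 regions against 48.7% in none. Within the third of windows highest in GC the core stood in 2.17% of SMC1 only and 4.66% of all 3 windows, and within the lowest in 3.33% and 8.04%.

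Motifs of other factors were also counted. GGGCGG, the GC box of SP factors, stood in 59.3% of SMC1 only and 62.9% of all 3 windows, against 35.9% of all windows. CCGGAAG, the ETS core, stood in 17.8% and 16.7%, against 8.92% of all. The AP-1 core TGANTCA stood in 7.00% and 4.84%, against 7.85% of all, and the TEAD core GGAATG in 13.1% and 12.5%, against 14.6%. CCAAT, the CCAAT box of NF-Y, stood in 38.9% and 34.8%, against 37.6% of all, and the YY1 motif AANATGGC in 8.44% and 7.81%, against 6.06%. The difference of the GC box and that of the CCAAT box, in percentage points, were of the size of that of the CTCF core. Each was searched on both strands, and a match of the CTCF core can hold a CCAAT box or a YY1 match in full, while no other motif can hold another. Windows in regions of either class were richer in GC than the rest, and GC content was not matched for these 6 motifs. Enhancers were not searched, since only promoter sequence was used here.

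In NIH-3T3 cells induced to express TCF-1, cohesin with CTCF was called again more fully than cohesin without it. The induced SMC1 list overlapped 66.2% of SMC1 only, 25.7% of both CTCF only and 98.1% of all 3 regions. These are 44.5%, 0.197% and 34.3% of that list of 95293 peaks. The induced CTCF lists overlapped 23.1% and 20.1% of SMC1 only regions, 96.7% and 96.7% of both CTCF only regions and 99.9% and 99.8% of all 3 regions. All 3 regions are wider, and overlap by any base depends on width. By the central base of the region the SMC1 shares were 60.0%, 23.3% and 92.8%. Those of the CTCF lists were 17.2% and 15.3%, 92.4% and 91.8%, and 82.5% and 80.6%. No CTCF or SMC1 list of induced cells had a peak in 26.4% of SMC1 only, 1.90% of both CTCF only and 0.0154% of all 3 regions. The SMC1 only regions that recurred were those near genes more than others, at 87.8% of regions with a gene end within 1 kb and 64.0% of the rest. Wider SMC1 only regions were also nearer to starts, as given above, and the part of width in this difference was not tested. The induced CTCF lists were longer, with 68306 and 64645 peaks, and both held a peak in 16.4% of SMC1 only regions.

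Of the 735 both CTCF only regions, 25.6% were called with SMC1 and both CTCF lists in induced cells and 69.8% with both CTCF lists and again without SMC1. TCF-1 of induced cells overlapped 26.4% of SMC1 only, 2.31% of both CTCF only and 24.7% of all 3 regions. By the central base of the region these were 16.5%, 1.22% and 11.03%. Of SMC1 only regions with a gene end within 1 kb, 58.1% met TCF-1, against 23.2% of the rest, and of all 3 regions 64.4% against 15.8%. TCF-1 peaks of untreated cells were not analysed here.

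Across cell lines the difference in recurrence was wider. In Scid.adh cells with the TCF-1 knockout, the SMC1 lists overlapped 22.0% and 24.4% of the SMC1 only regions of fibroblasts, 55.5% and 64.8% of both CTCF only regions and 88.2% and 90.3% of all 3 regions. In Scid.adh cells with the empty vector they overlapped 16.2% and 18.3%, 38.9% and 53.3%, and 80.3% and 84.8%. By the central base of the region the shares were lower. In the knockout they were 17.5% and 19.6%, 51.6% and 60.5%, and 70.5% and 73.1%. With the empty vector they were 12.1% and 13.9%, 35.6% and 49.3%, and 60.9% and 64.4%. The replicate lists differed by far less than SMC1 only and all 3 regions did. Both empty vector CTCF lists held 5.39% of SMC1 only, 71.0% of both CTCF only and 81.4% of all 3 regions by any base. By the central base, lists 1 and 2 taken singly held 4.46% and 7.75%, 68.6% and 78.9%, and 57.3% and 64.2%. CTCF regions that lacked SMC1 in fibroblasts carried SMC1 in both empty vector lists in 36.9% of cases. Among SMC1 only regions, both empty vector SMC1 lists were met by 54.5% of those with a gene end within 1 kb and by 9.78% of the rest.

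Regions at gene ends met marks of activity in the lymphoma line more often than other regions did, with CTCF and without it. Both empty vector H3K27ac lists, an acetylation of active promoters and enhancers, overlapped 14.1% of SMC1 only, 8.57% of both CTCF only and 21.6% of all 3 regions. NIPBL in both empty vector lists overlapped 4.29%, 0.680% and 8.74%. For SMC1 only regions with a gene end within 1 kb the shares were 57.3% for H3K27ac and 36.9% for NIPBL, and for the rest 9.69% and 0.951%. For all 3 regions they were 58.5% and 39.0% at gene ends, and 13.4% and 2.01% for the rest. H3K27ac and NIPBL of fibroblasts were not analysed here, and these values describe the lymphoma line alone.

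**Figure D5:**
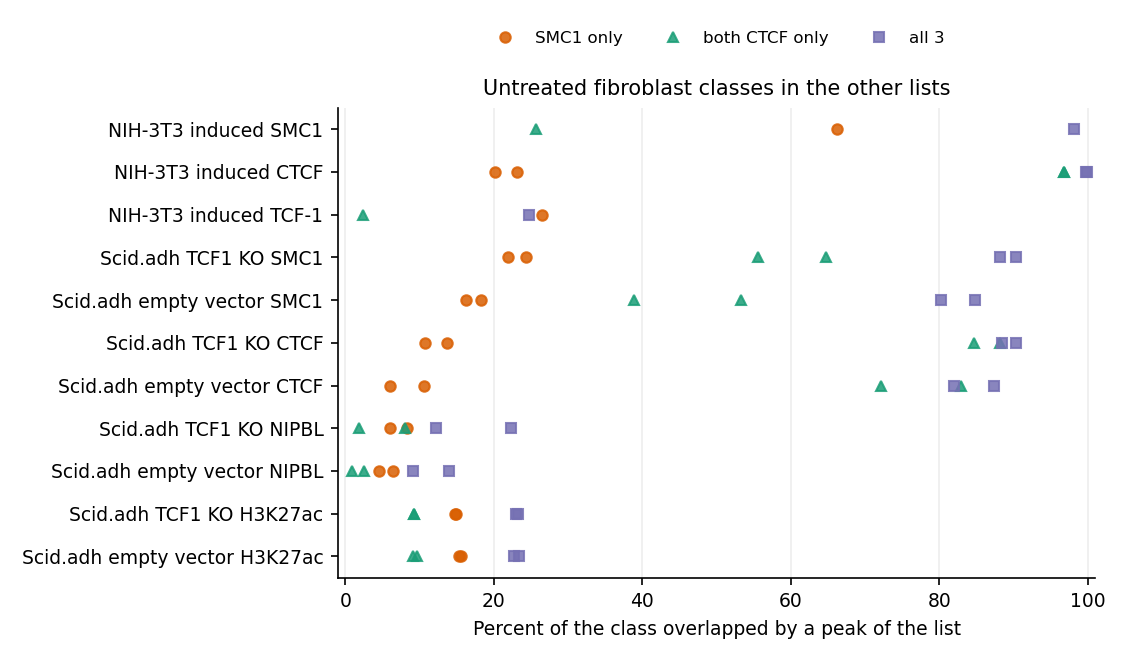
Percent of each class overlapped, by any base, by a peak of another list of the series (horizontal axis), with 1 row per cell and antibody and 1 symbol per list. SMC1 only circles lie far left of all 3 squares for the CTCF and SMC1 lists (16.2% to 24.4% against 80.3% to 90.3% for SMC1 of Scid.adh), and TCF-1 of induced fibroblasts overlaps 26.4% and 24.7%. TCF-1 of Scid.adh is not drawn.

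The balance of the classes in untreated fibroblasts was set beside that of the other conditions, each built from its own lists in the same way. In untreated fibroblasts 61.2% of SMC1 regions had no CTCF, against 44.7% in induced fibroblasts, 42.2% and 43.0% in the knockout with SMC1 lists 1 and 2, and 41.9% and 42.0% with the empty vector. SMC1 was called at 97.8% of CTCF regions of both lists in untreated fibroblasts, against 82.7% in induced fibroblasts, 88.3% and 92.6% in the knockout and 85.9% and 92.3% with the empty vector. The untreated set therefore had the highest value of both kinds. It also had the longest SMC1 list and the 2 shortest CTCF lists, and the part of list length in these shares was not tested.

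Gene ends set the lines apart in another way. Centres of SMC1 only regions were at gene ends in 8.06% of cases in untreated and 8.55% in induced fibroblasts, and centres of all 3 regions in 14.0% and 13.1%. In the knockout the values were 11.8% and 11.1% for SMC1 only against 12.4% and 11.9% for all 3, and with the empty vector 14.8% and 14.2% against 13.9% and 13.3%. The 2 classes were thus nearly level in the lymphoma line and apart in both fibroblast conditions. SMC1 only regions were also wider in fibroblasts, with medians of 472 bp untreated and 606 bp induced, against 349 and 333 bp in the knockout and 341 and 328 bp with the empty vector. With 1 SMC1 list per fibroblast condition these differences between lines were not tested. The SMC1 lists ran from 70438 peaks with the empty vector to 105033 in untreated fibroblasts, and the part of list length was not tested either.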

How the data were processed

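The lists of peaks were made by the authors. The tools were Bowtie2, MACS2 and bedtools on the mm10 build, per the submitters' processing notes. Versions, settings and the use of an input library were not given in the sources used here. The deposited CTCF, SMC1 and TCF-1 lists have 3 columns, the chromosome, start and end of each peak, with no count, signal or score. From the deposited H3K27ac and NIPBL lists of 9 columns only the positions were used. Width was the only measure of a peak.

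Peaks of the 3 lists were merged with a gap of 0 bp, and an overlap of 1 bp placed a region in a list. bedtools merge gave the same 107933 regions. Gene bodies were the 21631 protein-coding genes of RefSeq GRCm38.p6 on chromosomes 1 to 19 and X, of which 17274 had a strand from the promoter table. All 159 entries of 8 gene lists matched. The classes, members and gene lists were chosen with earlier results of these data known. Genes named by rule were the 8 of each fibroblast list with most SMC1 only regions (ties kept), the 10 genes with most regions of each class, the nearest genes of the 5 widest regions of each class, and up to 3 promoters a class. One gene named by this rule is not reported here. The rule also asked for list members with no SMC1 region, and there were none. Promoters on chromosome 18 were not printed, and those with the CTCF core came first. Other named genes were chosen after their values were seen.

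No test was made, since 2 CTCF lists and 1 SMC1 list allow none over samples. The alternatives were overlap of 50%, only peaks no narrower than the median of their own list, equal list length, merging across 500 bp, each CTCF list left out, CTCF in either list, SMC1 peaks also called in induced cells, other distances, and chromosomes 1 to 19 and X. The position of the centre was added after the data were seen. The merging, classing and counting were tested on 6500 simulated regions, and 6 of 6 planted items came back in full. Computation used python 3.11.15, numpy 2.4.6, pandas 2.3.3, scipy 1.17.1, matplotlib 3.10.9 and bedtools 2.31.1.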

Additional observations from a re-analysis of the deposited data

How the results depend on the processing

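Under 13 alternatives 67 values stayed within the set margin (1.5 times for a count of regions or genes, the reported interval for the rest) and 44 moved beyond it. An overlap of 50% moved 1 value (1 fibroblast list gene with a both CTCF only region, against 0). Merging across 500 bp moved none. Keeping chromosomes 1 to 19 and X gave every value exactly as reported, such as 64211 SMC1 only regions, so it tested nothing. With CTCF in either list the SMC1 only class is unchanged by its rule, so its region count, gene count and gene end share could not move. These fixed values are among the 67, which therefore overstate how many values were open to change. No paired analysis was possible because the SMC1 list carries no replicate number and the results come from no test.

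Settings that changed the length and the peak widths of the lists together mattered most. With every list reduced to its 38369 widest peaks there were 20670 SMC1 only, 17245 both CTCF only and 14953 all 3 regions, so that both CTCF only outnumbered all 3 regions, and 17 fibroblast list genes had a both CTCF only region. Gene ends were then near 19.6% of SMC1 only and 31.1% of all 3 regions, and the width ratios were 0.817 for SMC1 peaks (SMC1 only over all 3, 0.648 as reported) and 0.764 for CTCF peaks (both CTCF only over all 3, 0.690 as reported). With only the peaks no narrower than the median of their own list, the counts were 34589, 2289 and 12973, with 3 such genes, gene ends near 17.0% of SMC1 only and 27.5% of all 3 regions, and ratios of 0.818 and 0.824. The part of depth in these lengths was not tested.

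With SMC1 peaks also called in induced cells there were 42534 SMC1 only and 1343 both CTCF only regions, 12.3% of SMC1 only regions at a gene end and a ratio of 0.883 for SMC1 peaks. With CTCF in either list, 2994 regions had CTCF alone, 2 fibroblast list genes had one, the ratios were 0.698 for SMC1 and 0.668 for CTCF peaks, and gene ends were near 5.41% of CTCF regions alone and 17.8% of regions with both proteins. Leaving out each CTCF list in turn gave 1469 to 2280 regions with CTCF alone, 1 fibroblast list gene with one either way, ratios of 0.667 to 0.670 for SMC1 and 0.664 to 0.668 for CTCF peaks, and gene ends near 9.57% to 9.85% of SMC1 only and 5.51% to 5.75% of CTCF regions alone.

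Gene ends within 5 kb were met by 20.6% of SMC1 only, 26.8% of both CTCF only and 35.1% of all 3 regions, so that both CTCF only lay above SMC1 only there and below it within 1 kb. By centre 8.06% of SMC1 only and 14.0% of all 3 regions were at an end. With genes extended by 50 kb, 4 fibroblast list genes had a both CTCF only region.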
